A study of Homo sapiens with 6 samples.

Results

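In HEK293T cells, 34 of the 59087 rows of the count table were on or off in a single THUMPD2 knockout line. A row was taken as on in a line when both of its libraries held 12 or more reads and the other 4 libraries held 2 or fewer. It was taken as off when both libraries of the line held 2 or fewer reads and the other 4 held 12 or more. These rows were chosen by the read counts themselves, so their counts are described here without a test of the difference that chose them. Of 36 rows that met the thresholds, NHLH2 and FSTL5 were left out. AC027451.1, ZNF rows and ribosomal protein pseudogenes were barred as well, and none of them met the thresholds. KO1 had 1 row on and 12 rows off, and KO2 had 19 rows on and 2 rows off. The same thresholds applied to WT alone, with no row left out, gave 15 rows on and 22 rows off. Rows that separate 1 group from the other 4 libraries were thus also found for the WT cells. With reads scaled to a common library size, 2 rows were on and 8 off in KO1, and 12 on and 2 off in KO2. Without 1 of the 6 libraries, which loosens the rule, the numbers rose to at most 8, 24, 29 and 6.

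HEK293T is a human embryonic kidney line that carries the SV40 large T antigen. Its wild type (WT) and the lines THUMPD2 KO#1 (KO1) and THUMPD2 KO#2 (KO2) were each measured in 2 libraries of total RNA, with no other treatment given. THUMPD2 is a methyltransferase that acts on the U6 small nuclear RNA of the spliceosome, and the stated aim was a search for genes and splice forms that change without it, repeated in a second line. There was 1 WT line. The sources used here do not say how each line was made, whether it came from 1 cell, or whether its libraries came from separate cultures. Any p-value therefore measures the spread between these libraries alone, and that spread may be technical. Within 1 line, loss of THUMPD2 cannot be told apart from other differences between cell lines, and a row that is on or off in only 1 of the lines is by definition not shared between them. In bulk RNA, fewer cells that express a gene and less RNA per cell cannot be told apart either.

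Antisense RNAs are transcribed from the strand opposite a gene, and many are long, non-coding and made at low levels. Pseudogenes are copies of genes that have mostly lost their coding function, processed ones by way of an RNA copied back into the genome, and some are still transcribed. Promoters rich in CpG dinucleotides are found at many widely used genes, and those of tissue-restricted genes are more often poor in CpG.

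Totals ran from 7414339 to 8391143 reads per library. The THUMPD2 row itself had 0 to 3 reads in every library, too few to check the labels. The rows of 7 nephron markers summed to 10 to 26 reads per library with UMOD at 0, and those of 5 embryonic kidney regulators to 49 to 110 reads with LHX1 at 0. Markers of neurons and the adrenal lineage (6 rows, TH at 0) summed to 93 to 99 reads in WT, 32 to 53 in KO1 and 364 to 387 in KO2. NEFM was the largest of them in KO2 (229 and 186), while CHGA stayed at 0 to 6. On the opposite strand, the row AF106564.1 over NEFM was far larger. Its KO2 libraries held 6469 and 6574 reads, against 719 and 772 for WT and 74 and 67 for KO1. AC107373.2 over NEFL ranged from 8 to 40, highest in KO2, and AC243773.1 over LHX1 from 0 to 17, highest in WT. Which strand gave these reads was not tested. Rows of blood, endothelial and fibroblast markers stayed between 8 and 50 reads per list. The part of any other cell type in the results was not tested.

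The name of a row need not be the gene that gave its reads. The libraries keep the strand of the RNA, while the sources used here do not give the strand setting of the counting. FTH1, the ferritin heavy chain and one of the most abundant transcripts of most cells, had 197 to 300 reads in its own row. The row of BEST1, which shares 1267 exonic bases with FTH1 on the other strand, had 37659 to 49759. GAPDH likewise had 126 to 202 reads, against 122213 to 142186 in the antisense row AC006064.4 over its exons. For each placed row, the opposite-strand gene that shares most of its exonic bases, if any, is therefore given. Those not named further below are AC011447.7 over BNIP3P17 (318 bases), AL390729.1 over LINC01356 (400), AC012508.1 over AC012508.2 (513) and ARMCX4 over PPIAP90 (52). Which strand the reads of a row came from was not tested. Values below are reads in a row, not levels of a protein.

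Of the 33 rows that could be placed on GRCh38 with GENCODE v29 (AL139232.1 could not be placed), 11 carried the name of a protein-coding gene (33.3%), 10 of an antisense RNA (30.3%), 7 of a pseudogene (21.2%) and 5 of another long RNA (15.2%). Over the 13088 placed rows that reached 12 reads in at least 2 libraries these shares were 66.3%, 19.1%, 6.22% and 6.95%. The share with at least 100 exonic bases over an opposite-strand gene was 48.5% (16 rows) among the 33, and 47.5% among the 13088. Chromosome X held 3 of the 33 rows, chromosome 11 held 5, chromosome 19 held 4 and chromosome 20 held 3. In the larger set, 2.71% of rows lay on X, 5.68% on chromosome 11, 7.27% on chromosome 19 and 2.68% on chromosome 20. These shares are a description of a few rows. Reads from a pseudogene can be shared with its parent gene, so counts of the 7 pseudogene rows are uncertain.

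The RefSeq table of promoters (GRCh38.p14) had entries for 12 of the 34 rows, with 16 start sites in all. In 5 of the 16, the 250 bases before the start had a ratio of observed to expected CpG of at least 0.6, a ratio reached by 47.5% of the 35116 entries in the table. The bases before the starts of PUDP, STS and ANKRD60 are shown because these rows form the neighbouring pairs described next, with each CpG in capitals and each sequence 5′ to 3′ on the strand of its gene. PUDP (chrX:7148154-7148403, minus strand) had 41 CpG in 250 bases. STS has 5 starts in the table, with 1 to 15 CpG. Of the pair inside the PUDP gene, the one with 15 CpG is shown (chrX:7147462-7147711, plus strand), and the other, farther upstream, had 5. The start that matches the GENCODE gene start (chrX:7219206-7219455, plus strand) had 4. ANKRD60 (chr20:58228654-58228903, minus strand) had 32 CpG. The median over the table was 11.
PUDP: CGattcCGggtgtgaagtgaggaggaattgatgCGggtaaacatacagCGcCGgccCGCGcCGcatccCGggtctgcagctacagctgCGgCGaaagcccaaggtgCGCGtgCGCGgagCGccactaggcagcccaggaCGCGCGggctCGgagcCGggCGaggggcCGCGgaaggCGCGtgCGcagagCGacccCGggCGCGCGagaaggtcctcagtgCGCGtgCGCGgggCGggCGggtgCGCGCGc
STS start inside PUDP: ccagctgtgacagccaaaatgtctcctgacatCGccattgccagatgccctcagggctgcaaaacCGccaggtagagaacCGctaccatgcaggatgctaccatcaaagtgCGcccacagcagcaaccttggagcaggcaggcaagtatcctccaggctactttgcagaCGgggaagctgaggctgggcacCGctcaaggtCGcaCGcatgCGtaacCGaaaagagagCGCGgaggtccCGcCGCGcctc
STS GENCODE start: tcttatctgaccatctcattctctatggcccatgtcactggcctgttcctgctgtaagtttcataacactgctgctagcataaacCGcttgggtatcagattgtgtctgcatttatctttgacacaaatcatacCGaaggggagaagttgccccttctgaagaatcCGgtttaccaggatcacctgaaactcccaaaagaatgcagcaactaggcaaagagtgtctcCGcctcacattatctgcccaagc
ANKRD60: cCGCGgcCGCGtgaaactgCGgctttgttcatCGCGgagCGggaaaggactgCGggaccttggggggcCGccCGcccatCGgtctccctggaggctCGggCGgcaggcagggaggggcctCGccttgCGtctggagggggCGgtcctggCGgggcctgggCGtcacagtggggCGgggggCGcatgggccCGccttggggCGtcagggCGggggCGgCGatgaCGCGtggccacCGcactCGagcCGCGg

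**Figure D1:**
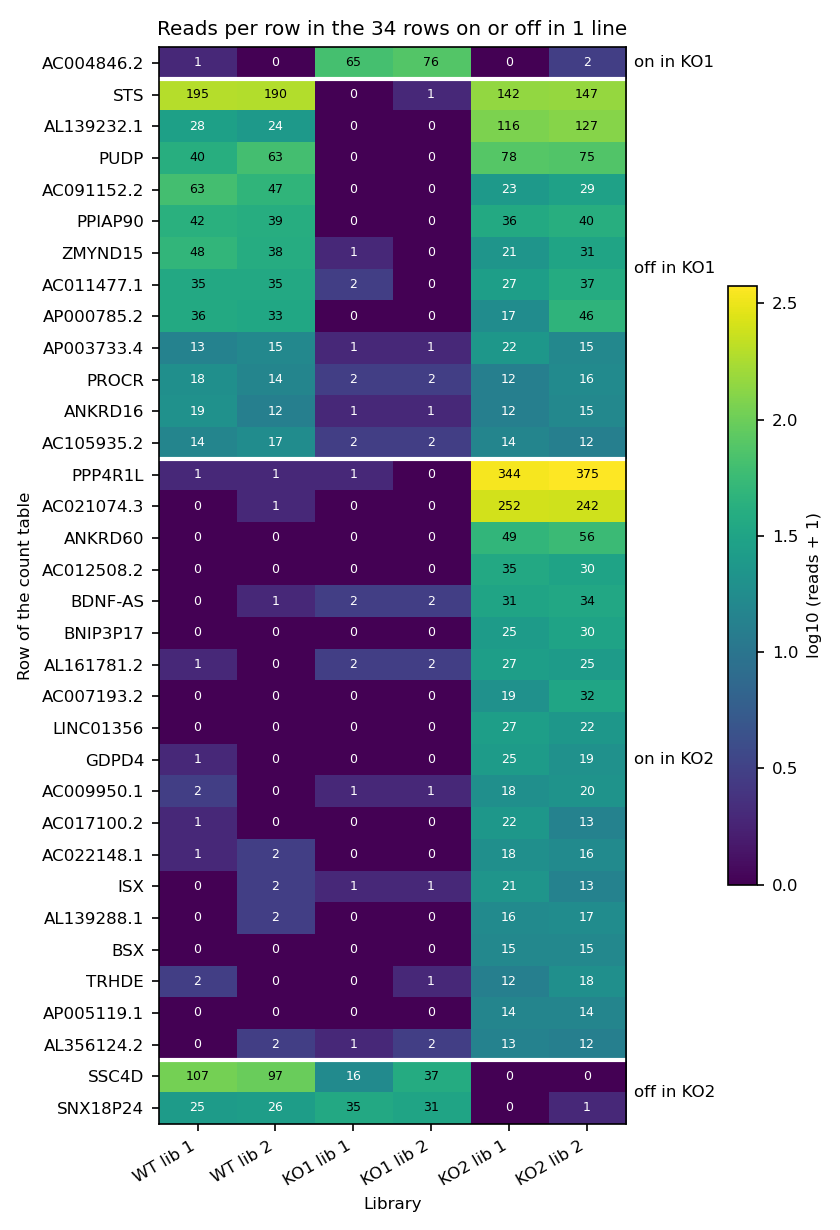
Reads per row (numbers, and colour as log10 of reads + 1) for the 34 rows in each of the 6 libraries, grouped by line and direction. The rows off in KO1 hold 0 to 2 reads in its libraries, and PPP4R1L and AC021074.3 stand above the other rows on in KO2.

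In KO1, the row with most reads that was lost was STS (chromosome X, 7219456 to 7354810, plus strand, ENSG00000101846.6), named for steroid sulfatase, the enzyme that removes sulfate from steroid precursors. It had 195 and 190 reads in WT, 142 and 147 in KO2, and 0 and 1 in KO1. The ratio of WT to KO1 reads, corrected for library size, was 364, with a counting interval (95%, exact) of 65.0 to 14430. PUDP (chromosome X, 7048920 to 7148190, minus strand, ENSG00000130021.13), named for a phosphatase that acts on pseudouridine 5′-phosphate, had 40 and 63 reads in WT, 78 and 75 in KO2, and 0 in both KO1 libraries. Against 3 reads over both KO1 libraries, which is the limit that a count of 0 allows, WT was at least 32.5-fold higher. Values given as at least, here and below, take the reads of the higher group as counted. They are thus not lower ends of an interval. The libraries of KO1 and those of the other groups did not overlap in either row, as the rule requires. Intervals and limits describe counting error alone, because no molecular identifiers are named in the sources used here and reads need not be independent molecules.

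In RefSeq, some starts of STS lie inside the PUDP gene, as given above. By the GENCODE v29 genes, STS and PUDP lie 71266 bases apart with their starts facing, and neither has annotated exons of 100 bases or more on the opposite strand. They were the only pair of KO1 rows within 500000 bases. No other row within 100 kb of them was tested. Within 4000 kb of the STS start, 11 rows had at least 10 reads over the 6 libraries. The nearest of these other than PUDP was PNPLA4, named for a lipase-like enzyme, 708283 bases from the STS start. PNPLA4 had 0 and 1 reads in WT, 17 and 20 in KO2, and 3 and 2 in KO1. It was higher in KO2 than in the mean of KO1 and WT (log2 fold change 3.69 ± 0.71 SE, adjusted p = 9.806e-05, edgeR quasi-likelihood test with Benjamini-Hochberg adjustment), and it missed the rule only by the 3 reads in 1 KO1 library. TBL1X, farther along, had 15 and 14 reads in WT, 17 and 13 in KO2, and 22 and 16 in KO1, so the groups overlapped there. RNU6-800P, a U6 pseudogene in the same stretch, had 12 and 17 reads in WT, 1 and 0 in KO2, and 0 and 0 in KO1, low in both lines. The loss in KO1 thus covered the rows of both STS and PUDP, while the next row, PNPLA4, held few reads in both KO1 and WT. PNPLA4 and the rows beside it were chosen after their values were seen.

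**Figure D2:**
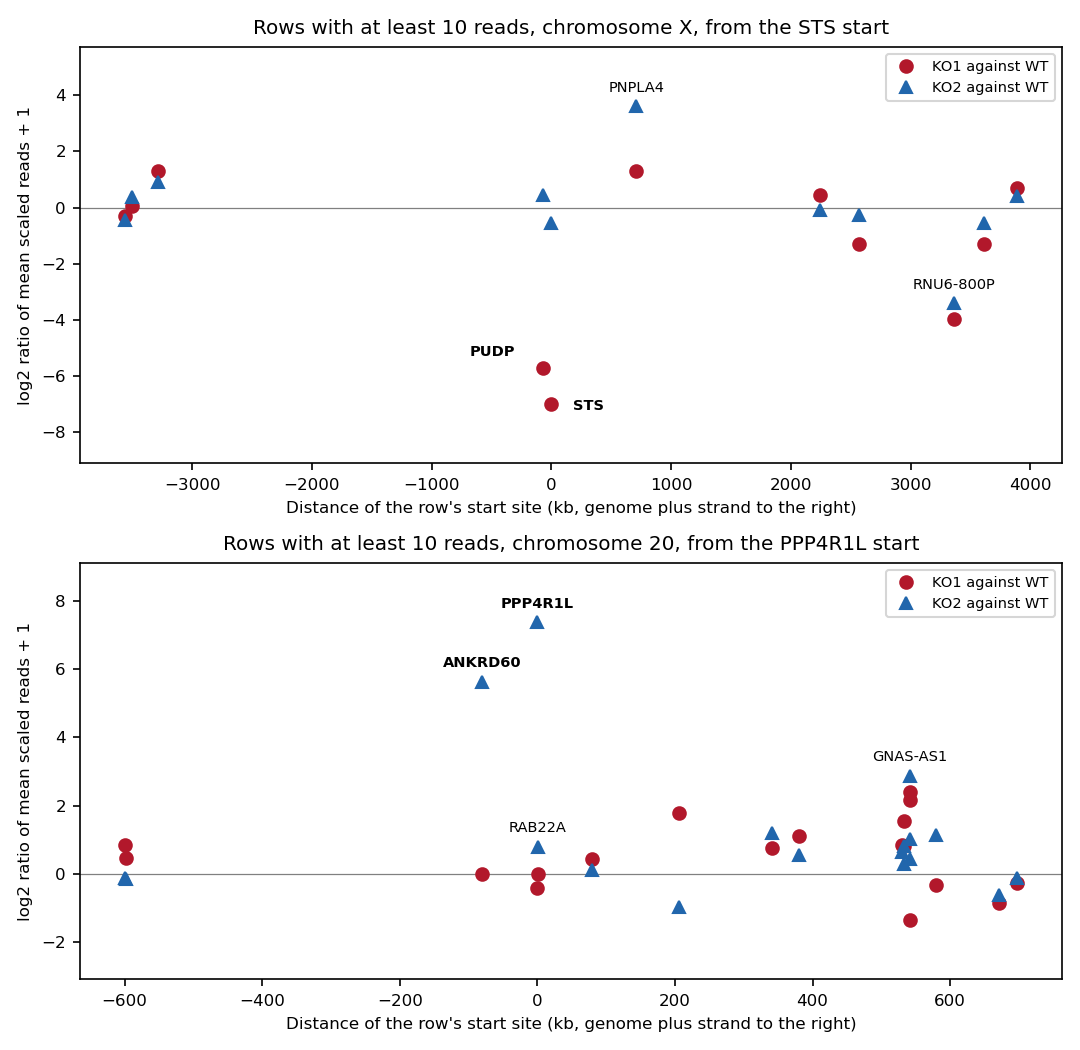
Log2 ratio of mean scaled reads + 1 in KO1 (circles) and KO2 (triangles) against WT, for rows with at least 10 reads, by distance in kb from the STS start (top) and from the PPP4R1L start (bottom). PUDP and STS stand lowest in KO1 alone, and PPP4R1L and ANKRD60 stand highest in KO2 alone.

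A further 6 rows off in KO1 carried names of long RNAs, pseudogenes or coding genes, and the 5 that were placed lay on several chromosomes. AL139232.1, a clone-based name with no position here, had 28 and 24 reads in WT, 116 and 127 in KO2 and 0 in both KO1 libraries, so WT was at least 16.4-fold above KO1. AC091152.2 (chromosome 17, 44673689 to 44676257, minus strand) shares 1824 of its exonic bases with MEIOC, named for a protein needed in meiosis, on the opposite strand. It had 63 and 47 reads in WT, 23 and 29 in KO2, and 0 in both KO1 libraries, at least 34.7-fold below WT. The MEIOC row held far more reads, 4676 and 4861 in WT, 3122 and 3475 in KO2, and 4010 and 3746 in KO1. The antisense row was thus empty in KO1 while the row over it was not.

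PPIAP90 (chromosome X, 101443707 to 101444103, minus strand) is a processed pseudogene of the cyclophilin gene PPIA, a family of near-identical copies, so its reads are uncertain. It had 42 and 39 reads in WT, 36 and 40 in KO2, and 0 in both KO1 libraries. ZMYND15 (chromosome 17, 4740015 to 4746119, plus strand), named for a repressor of spermatid genes, had 48 and 38 reads in WT, 21 and 31 in KO2, and 1 and 0 in KO1. AC011477.1 (chromosome 19, 19776602 to 19836073, plus strand), a transcribed pseudogene with 246 exonic bases over ZNF506, had 35 and 35 reads in WT, 27 and 37 in KO2, and 2 and 0 in KO1. All 3 kept 21 or more reads in each KO2 library. AP000785.2 (chromosome 11, 76210956 to 76216025, minus strand), a long intergenic RNA that lies 220 bases from WNT11, had 36 and 33 reads in WT, 17 and 46 in KO2, and 0 in both KO1 libraries. In all, 5 of the 12 rows had no read in either KO1 library.

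The other 4 rows off in KO1 sat close to the upper threshold, with 12 to 22 reads in each WT and KO2 library and 1 or 2 in each KO1 library. They were AP003733.4, 134 bases from FTH1 on chromosome 11, PROCR, ANKRD16 and AC105935.2. PROCR is named for the endothelial protein C receptor, which takes part in the control of clotting, and 218 of its exonic bases lie over AL356652.1. The AL356652.1 row held far more reads, 2087 and 2171 in WT, 740 and 694 in KO2, and 424 and 408 in KO1. It was thus below WT in both lines, and which row holds reads of PROCR was not tested. ANKRD16 is named for an ankyrin repeat protein, and AC105935.2 shares 327 exonic bases with the receptor gene MST1R, whose own row was at 0 in every library. PROCR, for example, had 18 and 14 reads in WT, 12 and 16 in KO2, and 2 in each KO1 library, a WT to KO1 ratio of 7.57 (2.69 to 29.5). Just outside the rule lay IQGAP2, which had 11 and 14 reads in WT, 13 and 11 in KO2 and 2 in each KO1 library, and FOXL2, with 31 and 19 in WT, 18 and 15 in KO2, and 3 and 1 in KO1. AC009163.1 had 87 and 104 in WT, 46 and 58 in KO2, and 3 and 0 in KO1. The boundary of the set is therefore one of single reads.

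One row was on in KO1 alone. AC004846.2 (chromosome 14, 73272182 to 73274081, minus strand) is an antisense RNA with 464 of its 777 exonic bases over PAPLN, named for the matrix protein papilin. It had 65 and 76 reads in KO1, 1 and 0 in WT, and 0 and 2 in KO2, a ratio of KO1 to WT of 149 (26.3 to 5925). The PAPLN row had 123 and 102 reads in WT, 58 and 51 in KO2, and 81 and 71 in KO1, so it was not highest in KO1. Beside AC004846.2, 2 of 3 tested rows were higher in KO1 than in the mean of KO2 and WT, where 10% of all 14184 tested rows were called higher by edgeR. NUMB, named for an inhibitor of Notch signalling and 1026 bases away, had 6 and 1 reads in WT, 6 and 5 in KO2, and 21 and 28 in KO1 (log2 fold change 2.59 ± 0.52 SE, adjusted p = 2.178e-04). AC004846.1, 26203 bases away, had 0 and 3 reads in WT, 1 and 0 in KO2, and 28 and 20 in KO1 (4.72 ± 0.71 SE, adjusted p = 3.104e-06). Both rows held enough reads to be tested only in KO1, and 3 of the 7 rows within 100 kb were tested. AC004846.1 also missed the rule only by the 3 reads in 1 WT library. These calls are thus no independent sign that the stretch was higher in KO1. At such low counts DESeq2 gave no adjusted p.

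KO2 had 19 rows on. PPP4R1L (chromosome 20, 58228940 to 58309439, minus strand, ENSG00000124224.16), a transcribed pseudogene related to a regulatory subunit of protein phosphatase 4, had most reads of all 34 rows. It had 344 and 375 reads in KO2, 1 and 1 in WT, and 1 and 0 in KO1, a ratio of KO2 to WT of 327 (90.3 to 2708). ANKRD60 (chromosome 20, 58218495 to 58228653, minus strand, ENSG00000124227.5), named for an ankyrin repeat protein, had 49 and 56 reads in KO2 and 0 in the other 4 libraries, at least 31.9-fold above WT. The 2 genes lie 287 bases apart on the same strand, with ANKRD60 downstream of PPP4R1L, and they were the only pair of KO2 rows within 500000 bases. Whether 1 transcript runs through both was not tested.

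The rows beside this pair did not share its pattern at similar size. RAB22A, named for a GTPase of endosomes, starts 257 bases from PPP4R1L on the opposite strand and had 5 and 9 reads in WT, 13 and 15 in KO2, and 7 and 6 in KO1 (log2 fold change in KO2 against the mean of KO1 and WT 0.87, adjusted p = 0.2586 by edgeR). VAPB, a coding row farther along, had 17 and 7 reads in WT, 14 and 15 in KO2, and 16 and 16 in KO1 (-0.11, adjusted p = 0.8946). GNAS-AS1, an antisense RNA of the imprinted GNAS locus that starts 541464 bases away, had 15 and 12 reads in WT, 93 and 140 in KO2, and 4 and 5 in KO1, and was higher in KO2 by a log2 fold change of 3.70 ± 0.28 SE (adjusted p = 5.444e-13 by edgeR). GNAS itself had 213 and 284 reads in WT, 435 and 416 in KO2, and 448 and 395 in KO1, so its KO1 and KO2 libraries overlapped. These rows were chosen after their values were seen.

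AC021074.3 (chromosome 3, 142926675 to 142942534, plus strand, ENSG00000243818.4) carries an antisense annotation and lies 6630 bases from PAQR9. It had 252 and 242 reads in KO2, 0 and 1 in WT, and 0 in both KO1 libraries, a ratio to WT of 450 (80.4 to 17800). PPP4R1L and AC021074.3 together stood well above the others, since the third row on in KO2, ANKRD60, averaged 52.5 reads against 247 for AC021074.3.

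Of the antisense and other long RNA rows on in KO2, the ones with most reads after these were AC012508.2 on chromosome 2 (127024252 to 127025723), with 35 and 30 reads in KO2 and 0 elsewhere, and BDNF-AS on chromosome 11 (27506838 to 27698174, plus strand). BDNF-AS runs over BDNF, which encodes a neurotrophin, and had 31 and 34 reads in KO2, 0 and 1 in WT, and 2 and 2 in KO1. The BDNF row had 26 and 31 reads in KO2, 28 and 34 in KO1, and 9 and 9 in WT. The BDNF row thus held similar reads in both lines, above WT, while BDNF-AS held 2 or fewer in each WT and KO1 library. AL161781.2 on chromosome 9, with 80 exonic bases over PAX5, had 27 and 25 reads in KO2, AC007193.2 on chromosome 19, over HIF3A, had 19 and 32, and LINC01356 on chromosome 1 had 27 and 22. The HIF3A row had 11 and 1 reads in KO2 and 1 to 4 elsewhere, so only the antisense row was high in both KO2 libraries. AC009950.1 (over SP110), AC022148.1 (over ZNF793), AL139288.1 (60 bases over RNF187) and AL356124.2 (over LAMA2) had 12 to 20 reads in the KO2 libraries.

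Coding rows on in KO2 other than ANKRD60 were few and low. GDPD4 (chromosome 11, 77216558 to 77301687, minus strand), named for a member of a phosphodiesterase family, had 25 and 19 reads in KO2, 1 and 0 in WT and 0 in both KO1 libraries. BSX (chromosome 11, 122977570 to 122981720, minus strand), a homeobox gene known from the hypothalamus, had 15 in each KO2 library and 0 elsewhere. ISX (chromosome 22, 35066136 to 35087387, plus strand), a homeobox gene known from the intestine, had 21 and 13 in KO2, 0 and 2 in WT, and 1 and 1 in KO1. TRHDE (chromosome 12, 72087266 to 72670757, plus strand), the enzyme that degrades thyrotropin-releasing hormone, had 12 and 18 in KO2, 2 and 0 in WT, and 0 and 1 in KO1. TRHDE shares 793 exonic bases with TRHDE-AS1, whose row had 110 to 152 reads in every library. These 4 rows hold 12 to 25 reads in KO2, which limits how well their size is known, and BSX was at least 9.10-fold above WT. The pseudogenes BNIP3P17 (25 and 30 reads) and AP005119.1 (14 and 14) were at 0 in the other 4 libraries. AC017100.2, a processed pseudogene over LRRC37A7P, had 22 and 13 reads in KO2, 1 and 0 in WT, and 0 in both KO1 libraries. In all, 7 of the 19 rows had no read in WT or KO1.

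Rows just outside the rule were of the same sizes. MAGEB2, a cancer-testis gene, had 10 and 9 reads in KO2 and 0 elsewhere, LINC02465 had 11 and 10 and 0 elsewhere, and C11orf72 had 48 and 13 in KO2, 3 and 0 in WT and 0 in both KO1 libraries.

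KO2 had 2 rows off. SSC4D (chromosome 7, 76389334 to 76409695, minus strand, ENSG00000146700.8), named for a member of the scavenger receptor family, had 107 and 97 reads in WT, 0 in both KO2 libraries and 16 and 37 in KO1, so WT was at least 74.7-fold above KO2. It has 280 exonic bases over ZP3, named for an egg coat protein, whose row had 19 and 21 reads in WT, 19 and 18 in KO2, and 37 and 33 in KO1, with no loss in KO2. SNX18P24 (chromosome 4, 49561479 to 49562149, plus strand), a processed pseudogene of SNX18 and thus uncertain, had 25 and 26 reads in WT, 0 and 1 in KO2, and 35 and 31 in KO1. The row AC119751.1, 4079 bases from SNX18P24, had 12 and 15 reads in WT, 0 in both KO2 libraries and 9 and 12 in KO1, and was lower in KO2 by edgeR (log2 fold change -6.65, adjusted p = 9.973e-05). It was 1 of 4 tested rows within 100 kb of the rows off in KO2, against 12.6% of all tested rows called lower.

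The 14 lost rows can be compared in the groups that kept them, a contrast that the rule did not use to choose them beyond 12 reads in each library. Among the 12 rows lost in KO1, 3 differed between KO2 and WT by the edgeR quasi-likelihood test, where 29% of all tested rows were called. AL139232.1 was higher in KO2 (log2 fold change 2.08 ± 0.27 SE, adjusted p = 1.243e-07). AC091152.2 was lower (-1.22 ± 0.35 SE, adjusted p = 0.006726), as was STS (-0.55 ± 0.17 SE, adjusted p = 0.01508). The call for AC091152.2 was lost without the first WT library (-0.94), and that for STS without the first WT library (-0.48) or either KO2 library (-0.55 and -0.53). DESeq2 called neither. ZMYND15 (-0.86) missed the threshold with all libraries and passed it without either KO1 library (-0.87 and -0.86). For PUDP the difference was 0.44 ± 0.27 SE (adjusted p = 0.2405), and for the other 7 rows it lay between -0.38 and 0.27. Of the rows lost in KO2, SSC4D was lower in KO1 than in WT (-1.86 ± 0.31 SE, adjusted p = 1.424e-05), where 23.6% of all tested rows were called, and SNX18P24 was not called (0.45 ± 0.39 SE, adjusted p = 0.4593). SSC4D was thus low in KO1 and empty in KO2. This contrast was added after the values had been seen.

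**Figure D3:**
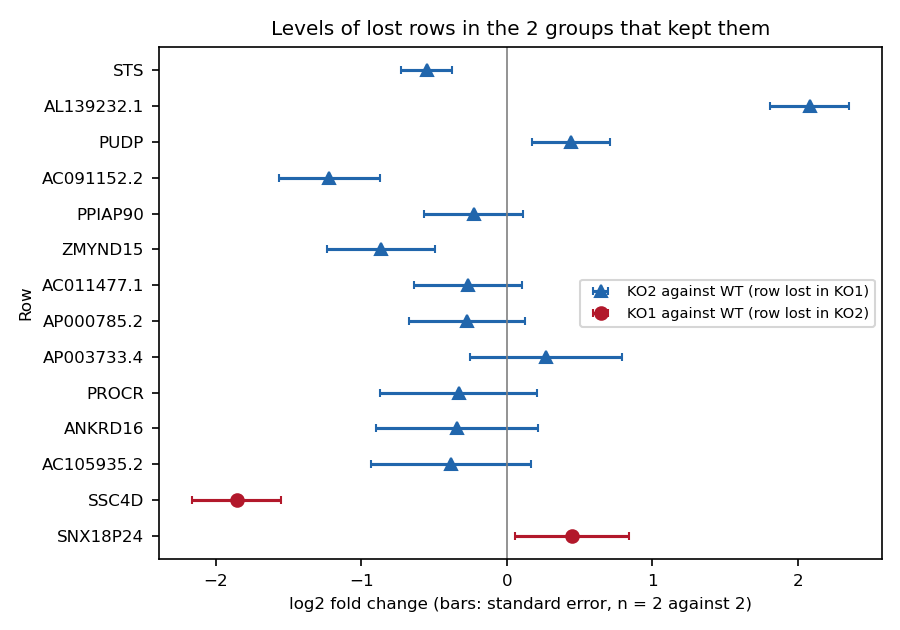
Log2 fold change (points, with standard error as bars, 2 libraries against 2) of each lost row between WT and the line that kept it, KO2 for rows lost in KO1 (triangles) and KO1 for rows lost in KO2 (circles). AL139232.1 lies at 2.08 and SSC4D at -1.86, while the other rows lie between -1.22 and 0.45.

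Rows within 100 kb of the 34 rows, which the rule did not use, were tested to see whether changes reached past single rows. Some of them overlap a member on the other strand, as AL356652.1 overlaps PROCR. With the strand of the reads unknown, such rows may measure the same gene as the member, and they were not counted apart. Near the rows off in KO1, 10 of 44 tested rows were lower in KO1 than in the mean of KO2 and WT and 4 were higher. Over all tested rows 10.6% were called lower. The median log2 fold change of the 44 was -0.03, against 0.01 over all tested rows. The 10 lower rows lay beside 4 of the 9 rows that had a tested neighbour, 4 of them near ANKRD16, 3 near PROCR, 2 near AP000785.2 and 1 near AP003733.4.

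Next to AP000785.2, WNT11, which encodes a secreted Wnt ligand, had 92 and 57 reads in WT, 48 and 44 in KO2, and 0 and 4 in KO1 (log2 fold change -4.65 ± 0.51 SE, adjusted p = 6.887e-09 by edgeR). AP000785.1, 15885 bases from the same row, had 106 and 141 reads in WT, 103 and 90 in KO2, and 34 and 39 in KO1 (-1.43 ± 0.21 SE, adjusted p = 2.669e-06). The third tested row there, AP002340.1, 73225 bases away, had 23 and 21 reads in WT, 18 and 25 in KO2, and 30 and 12 in KO1 (0.09, adjusted p = 0.9086), so its groups overlapped. AL356652.1, which overlaps PROCR on the other strand, had 2087 and 2171 reads in WT, 740 and 694 in KO2, and 424 and 408 in KO1 (-1.42 ± 0.07 SE, adjusted p = 2.617e-17), so its reads were lowest in KO1 and highest in WT. Near ANKRD16, GDI2, a recycling factor of Rab GTPases, had 245 and 260 reads in WT, 169 and 170 in KO2, and 102 and 105 in KO1 (-0.85 ± 0.14 SE, adjusted p = 1.571e-05), and TASOR2, IL15RA and AL137186.2 were also lower. IL15RA had 39 and 29 reads in WT, 7 and 12 in KO2, and 7 and 0 in KO1, so it was below WT in both lines. The call for IL15RA was lost without the second KO1 library (-1.25). BEST1, near AP003733.4, differed by -0.15 and was not called without the first KO1 library (-0.05). MMP24OS, near PROCR, differed by -1.06 and lost its call without either KO1 library (-0.92 and -1.21) or the first KO2 library (-0.86). MMP24 differed by -0.32 (adjusted p = 7.859e-04).

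Near the rows on in KO2, 10 of 37 tested rows were higher in KO2 than in the mean of KO1 and WT by edgeR and 0 were lower (1 at an unadjusted p under 0.05, and 0 by DESeq2). Over all tested rows 12.8% were called higher. The median log2 fold change of the 37 was 0.34, against 0.03 over all tested rows. The windows held 123 rows, and the filter on reads could keep a low row only because KO2 was high. PAQR9, ZNF570, ZNF571, ZNF793-AS1 and Z99755.1 were tested for this reason. The split of 10 to 0 and the median thus partly follow from the filter. With no filter except for rows with no reads, 11 of 79 rows were called higher. The 10 rows lay beside 5 of the 16 rows with a tested neighbour. Among the 10, PAQR9-AS1 was not above WT. It had 172 and 193 reads in WT, 157 and 150 in KO2, and 61 and 55 in KO1, so its call reflects low reads in KO1. The 10 became 4 without the first KO2 library and 6 without the second.

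AC022148.1 lay in a cluster of zinc finger genes where 4 of 7 tested rows were higher, of which ZNF793-AS1 had 2 and 5 reads in WT, 23 and 20 in KO2, and 1 and 0 in KO1 (log2 fold change 3.69 ± 0.68 SE, adjusted p = 5.099e-05 by edgeR). Beside AL356124.2, AL356124.1 had 15 and 9 reads in WT, 69 and 79 in KO2, and 11 and 18 in KO1 (2.30 ± 0.29 SE, adjusted p = 6.482e-08), and beside AL139288.1, AL670729.1 was higher by 0.38 (adjusted p = 1.393e-07). These 3 calls were kept without each library in turn. Beside AC021074.3, PAQR9, named for a receptor of the progestin and adipoQ family, had 2 and 10 reads in WT, 23 and 19 in KO2, and 3 and 4 in KO1 (2.00 ± 0.54 SE, adjusted p = 0.004605), and Z99755.1, 76917 bases from ISX, had 5 and 3 in WT, 24 and 14 in KO2, and 0 and 2 in KO1 (2.99 ± 0.66 SE, adjusted p = 6.105e-04). Both of these lost their calls without the first KO2 library (1.83 and 2.51). AC026304.1 lost its call without the first KO1 (0.84) or first KO2 library (0.82), and ZNF571-AS1 without the second KO2 library (0.52). ZNF570 lost it without the second WT (2.13), first KO1 (2.26), first KO2 (2.25) or second KO2 library (2.32), ZNF571 without the second WT (2.20), second KO1 (1.95) or second KO2 library (2.46), and PAQR9-AS1 (0.40) without any 1 of the 6 libraries (0.34 to 0.48).

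**Figure D4:**
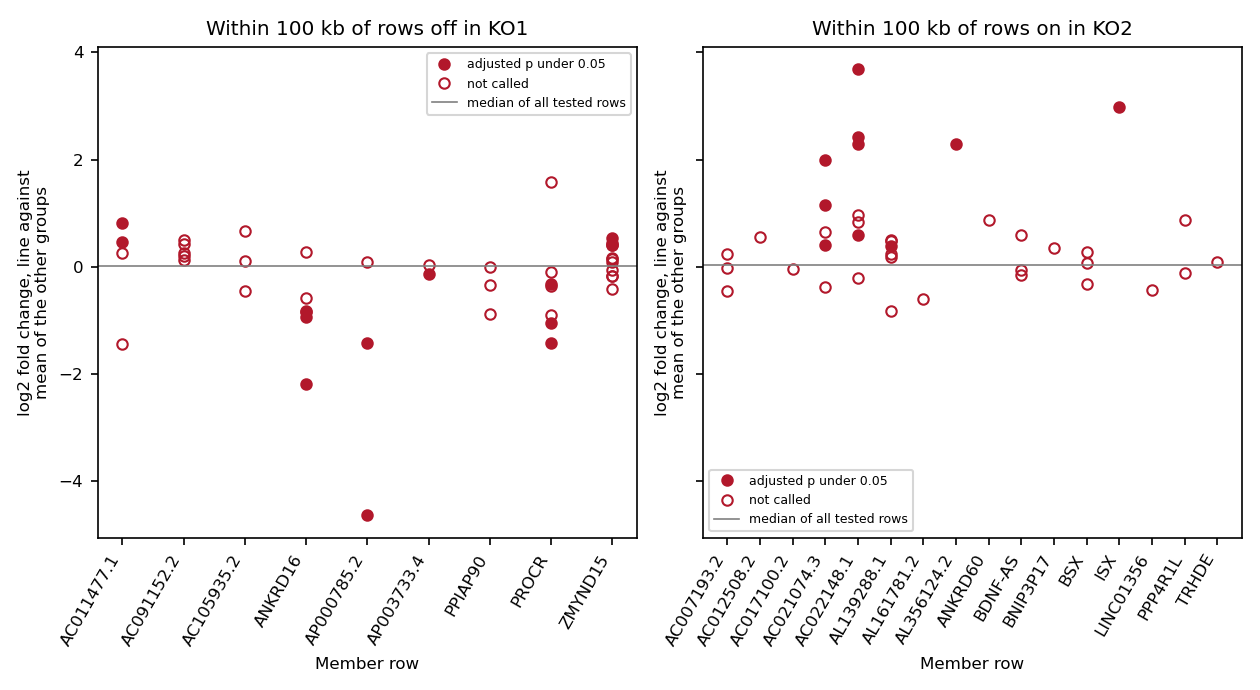
Log2 fold change of each tested row within 100 kb of a row off in KO1 (left, KO1 against the mean of KO2 and WT) or on in KO2 (right, KO2 against the mean of KO1 and WT), with filled points for adjusted p under 0.05 and the median of all tested rows as a line. Lower rows sit near ANKRD16, AP000785.2 and PROCR on the left, and higher rows near AC021074.3, AC022148.1, AL356124.2 and ISX on the right.

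The authors' deposited table, which sets the 4 knockout libraries against WT, lists 15 of the 34 rows, the 14 lost rows and AL161781.2. Its q-value was under 0.05 for SSC4D alone (log2 fold change -4.99, q = 0.02759), while 9.88% of the 11785 rows of the authors' deposited table were under it. In the authors' deposited table STS had a log2 fold change of -3.89 with q = 0.1175, and PUDP -2.84 with q = 0.2467.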

How the data were processed

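Total RNA of HEK293T cells gave 6 libraries, 2 each of WT, KO1 and KO2, with groups from the genotype labels. The NEBNext Ultra II Directional kit was used on TRNzol extracts, per the labels' protocols. HTSeq 0.6.1p1, STAR 2.7.1a, limma and Trim Galore are named in the submitters' processing notes, as are hg38 and GRCh38.p6. Values deposited by the authors were raw read counts for each gene symbol, not normalized, and FPKM values, which the authors scaled by length and depth and which were not used for any result. The authors' deposited table also holds log2 fold changes of the knockout libraries against WT with q-values.

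The rule was applied to the deposited counts. Members, gene lists and tests were chosen with earlier results of these data known. The test was the quasi-likelihood test of edgeR 4.0.16 in R 4.3.3 (TMM, filterByExpr, 14184 rows kept, all 34 members among them, 1 fit of 3 groups, Benjamini-Hochberg adjusted p under 0.05), and the fit was tested on simulated data. Each line was compared with the mean of the other groups, and, as an addition, with WT. Both kinds of contrast share libraries. Symbols were matched to GENCODE v29 for positions, 56195 as written and 324 by another symbol, while 219 symbols named more than 1 gene and 2349 found no place. Named rows were the 10 with most reads where on in each of the 4 groups, pairs of the same line within 500000 bases, rows of or over coding genes, and rows at the thresholds. Ratios to WT used counts divided by effective library sizes, with exact intervals. Replicates differed by more than counting noise (chi-square per degree of freedom 2.32 in WT, 3.63 in KO1 and 2.20 in KO2). Deviations of same-numbered libraries correlated at -0.03, -0.02 and -0.02 across the groups, so no pairing by number was seen over all tested rows. A pairing that touches only some rows, or is small beside counting noise, would not be seen this way. Alternatives were other scalings, DESeq2 1.42.0, other filters, a replicate block, other thresholds and windows, and leaving out each library.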

Additional observations from a re-analysis of the deposited data

Results flagged for a closer look

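For 3 of the 14 lost rows, the line that kept the row lay above WT in both of its libraries while the other line had lost it, so the lines stood on opposite sides of WT. AL139232.1 had a mean of 26.5 scaled reads in WT and 112 in KO2, 4.24 times as many, and no read in KO1. PUDP had 51.9 in WT and 70.8 in KO2, 1.36 times as many, and no read in KO1. SNX18P24 had 25.9 in WT and 35.4 in KO1, 1.37 times as many, and 0 and 1 reads in KO2. Of the 3, only AL139232.1 was called above WT by the edgeR test (adjusted p = 1.243e-07). PUDP (0.2405) and SNX18P24 (0.4593) were not. The difference between the lines was not tested, since the rule fixes one side of it.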

How the results depend on the processing

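Row numbers depended on the thresholds, as single reads decide membership, and no called fold change turned its direction under the alternatives run. Among rows not called between KO2 and WT, ANKRD16 turned from -0.34 to 0.08 without the first WT library, and without the first KO2 library AP000785.2 turned from -0.28 to 0.25 and AP003733.4 from 0.27 to -0.06. With an upper count of 8 in place of 12, rows on in KO1, off in KO1, on in KO2 and off in KO2 numbered 4, 20, 33 and 4, and with 20 the last 3 numbered 7, 8 and 1. With a lower count of 0 in place of 2 they numbered 0, 5, 7 and 1, and with 5 they numbered 7, 29, 48 and 6. Scaling counts to a common library size gave 2, 8, 12 and 2 rows. Leaving out 1 library, which loosens the rule, gave 1 to 8, 14 to 24, 22 to 29 and 2 to 6 rows.

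Of rows near members, 10 were lower beside rows off in KO1 and 29 within 500000 bases, with 8 to 11 when a library was left out. Beside rows on in KO2 the 10 higher rows became 6 within 50000 bases, 25 within 500000, 6 with DESeq2, 3 at a mean count of at least 50, and 4 to 10 when a library was left out. Beside rows off in KO2 the count was 2 within 500000 bases, 0 at a mean of 50, and 1 to 2 when a library was left out. Beside the row on in KO1 it was 0 with DESeq2, which gave no adjusted p there, 0 at a mean of 50, and 2 when any library was left out.

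With the replicate number as a block, the 2927 rows called in KO1 against the mean of the others became 2757 and the 3592 in KO2 became 3407. Against WT, 3350 became 3147 and 4118 became 3944. The block gave 2, 10, 9 and 1 called rows near members, and it changed the call of PAQR9-AS1 only among the rows named. Without 1 library, calls ran from 2269 to 2704 and 2598 to 3674 against the mean of the others, and from 2575 to 3411 and 3228 to 4541 against WT. Low reads limit most members, since 12 reads in a library is the threshold itself.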

Other observations

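None of 8 gene lists held a member, by row or by an opposite-strand gene sharing at least 100 exonic bases. AL161781.2 shares 80 bases with PAX5, a developmental factor by these lists, and so fell below that limit. BSX and ISX are homeobox genes that the lists' prefixes do not reach. Among tested rows of the lists, read by row name, 21 of 75 neuronal adhesion and channel rows were higher and 3 lower in KO2 than in the mean of KO1 and WT, and 8 were higher and 12 lower in KO1 than in the mean of KO2 and WT. Of 24 cancer-testis and germline rows, 6 were higher and 0 lower in KO2 by edgeR, with 3 lower at an unadjusted p under 0.05 and 0 by DESeq2. In KO1, 0 of them were higher, also at an unadjusted p and by DESeq2, and 2 lower. Of 125 developmental factor rows, 11 were higher and 30 lower in KO2, and 26 higher and 21 lower in KO1. Of 82 rows of U6 and the spliceosome, 7 were higher and 13 lower in KO2, and 11 higher and 1 lower in KO1. Solute carriers (195 rows) gave 33 higher and 27 lower in KO2 and 31 and 26 in KO1, and imprinted genes (8 rows) 1 and 1 in each line. Keratins (15 rows) gave 3 higher and 2 lower in KO2, and by edgeR 0 higher (1 at an unadjusted p under 0.05, 0 by DESeq2) and 1 lower in KO1. Olfactory receptors (10 rows) gave 3 higher and 0 lower in KO2 (also 0 at an unadjusted p and by DESeq2), and 1 higher and 1 lower in KO1. Over all tested rows 12.8% were higher and 12.6% lower in KO2, and 10% higher and 10.6% lower in KO1, and no list's difference from these shares was tested. Which strand these reads came from was not tested.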
